A study of Rattus norvegicus albus with 6 samples.

Results

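The proteasome subunits were followed on 6 arrays of rat hepatic stellate cells, the liver cells that store vitamin A and become matrix-producing myofibroblasts during fibrosis. The members were all genes whose single symbol began with Psma, Psmb, Psmc, Psmd, Psme, Psmf or Psmg and a digit. The interferon-inducible immunoproteasome genes Psmb8, Psmb9, Psmb10, Psme1 and Psme2 were left out. This gave 42 of 14322 named genes, measured by 47 probe sets, with the probe set of highest mean standing for a gene. Of the 42, 15 belong to the core particle and 17 to the regulatory particle, 6 are assembly chaperones and 2 are alternative caps. The symbols Psmc3ip and Psme3ip1 share the letters but belong to proteins that bind a subunit, so they are given apart. Psmf1, Psmg3 and Psma8 had no probe set under that symbol alone, and Psma3 shared its probe set with Psma3l. The rule reads names only, and it was set with earlier results of these data known.

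The proteasome degrades proteins that carry ubiquitin chains. Its core particle is a barrel with alpha rings at its ends, which form the gate, and beta rings in its middle, whose subunits Psmb5, Psmb6 and Psmb7 hold the proteolytic sites. The regulatory particle caps the barrel: a base with the ATPases Psmc1 to Psmc6 unfolds the substrate, and a lid removes its ubiquitin. Cytokines replace the catalytic subunits with immunosubunits, and a shortage of proteasome activity is known to raise most subunit genes together through the transcription factor Nfe2l1. In stellate cells, drugs that inhibit the proteasome have been studied for their effects on activation and survival.

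All cells were primary rat stellate cells grown on plastic for 7 days in medium with 10% serum, of a strain that the labels do not name. For Ad.DKK-1, an adenovirus that expresses the secreted Wnt antagonist DKK-1, and for its control Ad.GFP, cells were infected at a multiplicity of 200 for 24 h in 5% serum and kept a further 24 h in serum-free medium. ICG-001, an inhibitor of the pairing of β-catenin with the coactivator CBP, was used at 10 µM, and FJ9, an inhibitor of the pairing of Frizzled with Dishevelled, at 200 µM. The compounds were each given for 24 h in serum-free medium against a vehicle array of their own. Each of the 6 groups was 1 array, hybridised with a pool of RNA over 3 to 4 rats. No difference within a treatment therefore has a replicate or a test. The vehicle array of FJ9 minus that of ICG-001 is given as the nearest measure of how far pools without a treatment lie apart. The vehicle is not named in the sources used here, and neither array was infected. Below, a value after "against" is that of the array's own control. Values are log2 expression values, differences are treated minus own control on that scale, and higher or lower counts need at least 1.5-fold (0.58 on the log2 scale).

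Of 12 stellate cell markers, 11 had a probe set and all 11 lay above the level filter, which left out the lowest 30% of genes by mean level. None of 5 measured hepatocyte markers did, against 2 of 6 macrophage, 1 of 3 endothelial and 2 of 2 cholangiocyte markers. The means of the 2 cholangiocyte markers, Epcam (6.48) and Krt19 (6.45), lay just above the level limit of 6.39. Epcam read as low as 5.69, on Ad.DKK-1. Array medians ran from 7.01 (Ad.DKK-1) to 7.28 (the vehicle of ICG-001). Centring every array on its median moved the median difference over 10025 genes from 0.01 to 0.18 for ICG-001 and from −0.07 to 0.03 for Ad.DKK-1, so the differences of the members are read beside the median of all genes.

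Most proteasome subunits lay within 1.5-fold of control under each of the 3 treatments. Of 42 members, 41 lay above the level filter. The exception was Psmb11, the catalytic subunit of the thymus, which read between 5.35 and 6.48. No member of the 41 was at least 1.5-fold higher under Ad.DKK-1, where 14.5% of all 10025 genes were, and 1 (Psmb1) was lower, where 20.8% were. With ICG-001, 5 (Psma6, Psmb6, Psmd9, Psmg1 and Psmg2) were higher, beside 12.6% of all genes, and 1 (Psmc3ip) was lower, beside 13.1%. With FJ9, 1 (Psmg4) was higher, beside 11.6%, and 1 (Psma5) lower, beside 14.8%. After centring on array medians the counts were 3 higher (Psme3, Psme3ip1 and Psmg4) and 0 lower under Ad.DKK-1, beside 1874 and 1681 of all 10025 genes. With ICG-001 they were 9 higher and 1 lower, beside 2218 and 754 of all 10025 genes. Psmb5, Psmd10, Psme3 and Psme3ip1 were those added with ICG-001. Between the vehicle arrays 2 members, Psmd4 and Psmd10, were higher, beside 2.44% of all genes, and none was lower, beside 5.2%. The share of members past 1.5-fold in either direction was thus 2.44% under Ad.DKK-1, 14.6% with ICG-001 and 4.88% with FJ9, beside 35.2%, 25.7% and 26.4% of all genes.

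Taken over the 31 subunits of the core and regulatory particles alone, the standard deviation of the differences was 0.26 under Ad.DKK-1, 0.33 with ICG-001 and 0.23 with FJ9. Over all genes it was 0.68, 0.56 and 0.63. The vehicle arrays gave 0.18 for these subunits and 0.34 for all genes. Mean levels ran from 8.28 to 11.69 for the subunits and from 6.39 to 13.35 for all genes past the filter. No set of genes matched for level was compared. From the lowest to the highest of the 6 arrays the median subunit spanned 0.56, from 0.25 (Psmc1) to 0.99 (Psmb2), and the median gene 0.91. The 31 subunits were nonetheless not all within the distance of the vehicle arrays: in the core, 11 of 14 differences were larger than that gene's vehicle difference in each treatment, and in the regulatory particle 8 of 17 under Ad.DKK-1 and 9 of 17 with each compound. For all genes these shares were 73.5%, 68.5% and 66.4%.

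**Figure D1:**
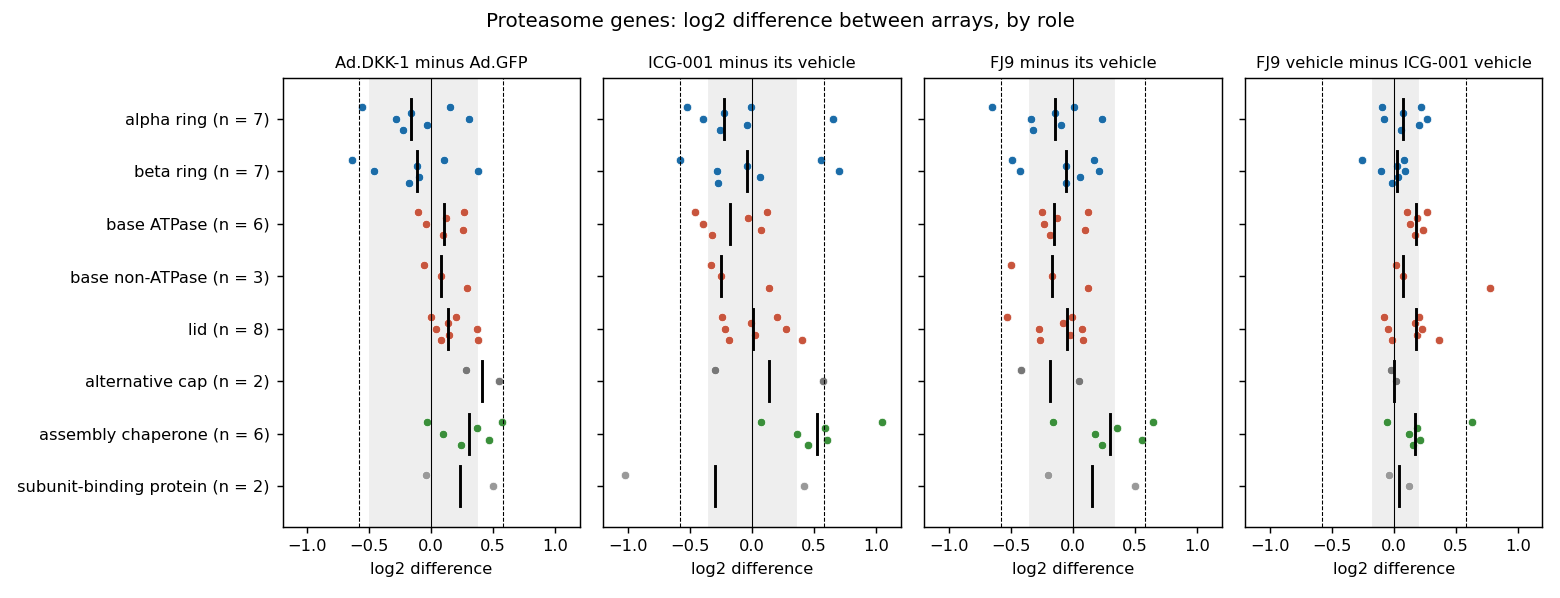
Each point is the log2 difference of 1 proteasome gene above the level filter, in rows by role and in 1 panel per comparison; black bars are medians, dashed lines 1.5-fold and the grey band the quartiles of all 10025 genes. Nearly all points lie between the dashed lines, the assembly chaperones sit to the right in the ICG-001 panel, and the regulatory particle lies right of the core under Ad.DKK-1.

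Under Ad.DKK-1 the core lay lower than the regulatory particle, a difference that could not be tested with 1 array per group. The core median was −0.14 and the regulatory median 0.12, against −0.07 over all genes. In the regulatory particle 13 of 17 subunits lay above 0 and 16 above the median of all genes, while 4 and 5 of 14 core subunits did. Of all 10025 genes 4628 lay above 0. The core lay below the regulatory particle by between 0.23 and 0.30 under each normalization, the level filter or none, and each probe set rule tried for this treatment. With ICG-001 the medians were −0.13 and −0.03 against 0.01, and after centring on array medians 0.04 and 0.14 against 0.18. With FJ9 they were −0.08 and −0.13 against 0.01. The order of both particles with FJ9 turned over against the other vehicle array, where the core stood at −0.07 and the regulatory particle at −0.01, and with the lower probe set of each gene. Between the vehicles themselves the core differed by 0.05 and the regulatory particle by 0.17, against 0.02 over all genes. The core thus lay below the regulatory particle by 0.13 between the vehicle arrays, beside 0.26 under Ad.DKK-1. The vehicle arrays were not infected, so they are not a like measure for the adenovirus pair. Read against the median of all genes, the regulatory particle stood at 0.18 under Ad.DKK-1 and 0.15 between the vehicles.

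Across the 3 treatments, limma tested the mean difference of treated against control, blocked by pair. None of the 41 members was called at a Benjamini-Hochberg adjusted p under 0.05, beside 8.58% of all genes, and 1 (Psme3ip1) had an unadjusted p under 0.05, beside 2502 of 10025 genes. Among core subunits the smallest adjusted p was that of Psmb3, with a mean difference of −0.41 (SE 0.20, adjusted p = 0.21) and a 95% interval of −0.83 to 0.01. Among regulatory subunits it was that of Psmc4, at −0.21 (SE 0.18, adjusted p = 0.506) with an interval of −0.60 to 0.19. The intervals of the 17 regulatory subunits reached from −0.66 to 0.56. The fit averages 3 unlike treatments and tests none of them alone.

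Within the alpha rings, which gate the barrel, Psma6 stood apart with ICG-001. It read 10.42 on Ad.DKK-1 against 10.45 on Ad.GFP, 10.85 on ICG-001 against 10.20, and 10.35 on FJ9 against 10.11, and its difference of 0.66 was 1.58-fold and grew to 0.74 against the other vehicle. The ICG-001 array held the highest of the 6 values. A lower second probe set of Psma6 also read higher with ICG-001 (0.44) but differed by −1.22 with FJ9. The vehicle array of FJ9 read 8.76 on it and the other 5 arrays 7.23 to 7.71. The direction of Psma6 with FJ9 thus depended on the probe set. RefSeq names 5 pseudogenes or copies of Psma6, and how far such copies share probes was not tested.

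Psma5 was the lowest member with FJ9. It read 9.59 on Ad.DKK-1 against 9.87 on Ad.GFP, 9.28 on ICG-001 against 9.54, and 9.09 on FJ9 against 9.74. FJ9 gave the lowest value of all, and the difference of −0.65 from its own vehicle was −0.45 from the other vehicle, no longer past 1.5-fold. Psma2 and Psma1 marked the low end under the other treatments. Psma2 read 10.49 on Ad.DKK-1 against 11.05 on Ad.GFP, 10.65 on ICG-001 against 10.87, and 10.75 on FJ9 against 11.09, lower than control in all 3 pairs, and its limma mean was −0.37 (SE 0.18, adjusted p = 0.223). Psma1 read 10.67 on Ad.DKK-1 against 10.83 on Ad.GFP, 10.34 on ICG-001 against 10.87, and 10.78 on FJ9 against 10.77, and the ICG-001 array was the only low value, −0.53 from its vehicle. Psma4 (−0.23, −0.01 and −0.32 under Ad.DKK-1, ICG-001 and FJ9), Psma7 (0.31, −0.04 and −0.14) and Psma3l (0.15, −0.40 and −0.10) completed the rings. The signs of Psma4 and Psma7 with ICG-001 turned with centring. The probe set that lists both Psma3l and Psma3 differed by 0.04, −0.29 and −0.05.

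Of the catalytic beta subunits, Psmb5 and Psmb6 read above control in all 3 pairs and Psmb7 read near it. Psmb6, which cuts after acidic residues, read 9.34 on Ad.DKK-1 against 8.96 on Ad.GFP, 9.21 on ICG-001 against 8.51, and 8.75 on FJ9 against 8.54. Each treated array was above its control, by 0.38, 0.70 and 0.21, and the ICG-001 difference of 1.62-fold held against the other vehicle (0.66). Its limma mean over the treatments was 0.43 (SE 0.22, adjusted p = 0.231). The second, lower probe set of Psmb6 gave 0.72 with ICG-001 but −0.10 under Ad.DKK-1 and −0.21 with FJ9, so only the ICG-001 direction was shared by both probe sets.

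Psmb5, the chymotrypsin-like subunit and the main target of clinical proteasome inhibitors, read 11.12 on Ad.DKK-1 against 11.01 on Ad.GFP, 11.19 on ICG-001 against 10.63, and 10.70 on FJ9 against 10.53. Its ICG-001 difference of 0.56 lay just under 1.5-fold and was 0.66 against the other vehicle. After centring it was 0.73, past 1.5-fold, beside a median of 0.18 over all genes. Psmb7, the trypsin-like subunit, read 11.14 on Ad.DKK-1 against 11.24 on Ad.GFP, 11.03 on ICG-001 against 10.97, and 10.90 on FJ9 against 10.95, and its 6 values spanned 0.34, the narrowest range in the core. Psmb5 and Psmb6 were the only core subunits above control in all 3 pairs, on the probe sets that stand for them.

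The beta subunits without a proteolytic site were lower or near control. Psmb2 read 10.29 on Ad.DKK-1 against 10.40 on Ad.GFP, 9.41 on ICG-001 against 9.99, and 9.59 on FJ9 against 10.02. The ICG-001 array was lowest and −0.58 from its vehicle, just inside 1.5-fold. Against the other vehicle it was −0.61, just outside it. Psmb1 read 9.44 on Ad.DKK-1 against 10.08 on Ad.GFP, 9.75 on ICG-001 against 10.03, and 10.06 on FJ9 against 10.12, and the Ad.DKK-1 array was the only one below 9.7, at −0.64 from Ad.GFP. Centring took this to −0.55, inside 1.5-fold.

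Psmb3 read 9.44 on Ad.DKK-1 against 9.90 on Ad.GFP, 9.41 on ICG-001 against 9.68, and 9.27 on FJ9 against 9.76, and all 3 treated arrays were below their controls, with differences of −0.46, −0.28 and −0.49. RefSeq names 10 pseudogenes or copies of Psmb3, more than of any other member. Psmb4 differed by −0.17, −0.04 and 0.06. In all, 6 of 14 core subunits (Psma2, Psma4, Psma5, Psmb1, Psmb2 and Psmb3) were below control in all 3 pairs and 2 above, beside 23.4% and 23.6% of all genes. The sign of Psma4 in this count turned with ICG-001 after centring.

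**Figure D2:**
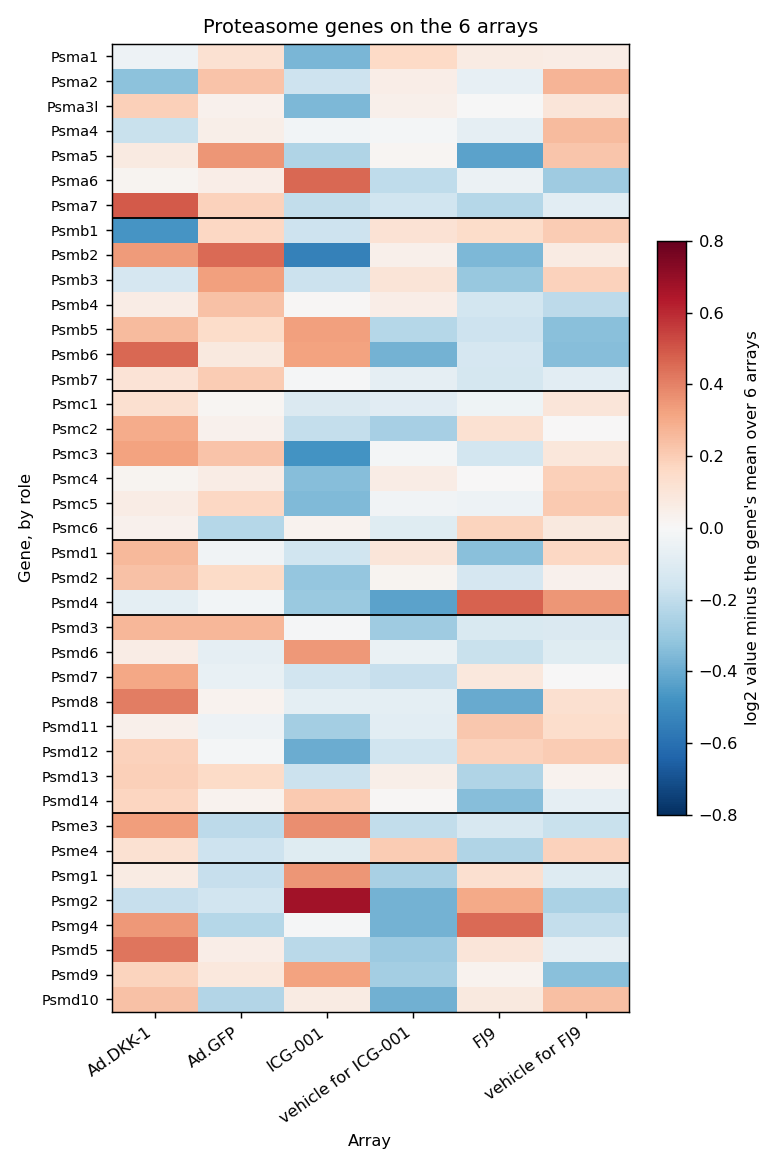
Rows are proteasome genes in blocks by role (alpha ring, beta ring, base ATPases, other base subunits, lid, alternative caps, assembly chaperones), columns the 6 arrays, and colour the log2 value minus the gene's own mean over the arrays. The darkest cell is Psmg2 on the ICG-001 array, Psmb2 and Psmc3 are low on that array, and no column is of 1 colour throughout.

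The base of the regulatory particle showed no subunit past 1.5-fold in any treatment. Its ATPases ranged from −0.11 (Psmc5) to 0.26 (Psmc6) under Ad.DKK-1, from −0.46 (Psmc3) to 0.12 (Psmc6) with ICG-001, and from −0.25 (Psmc5) to 0.12 (Psmc2) with FJ9. Psmc1, an ATPase of the ring, read 11.42 on Ad.DKK-1 against 11.30 on Ad.GFP, 11.17 on ICG-001 against 11.20, and 11.25 on FJ9 against 11.38, a span of 0.25 over the 6 arrays and the smallest of all members. Psmc2 and Psmc6 were above control in all 3 pairs, and Psmc4 and Psmc5 below it, each by at most 0.40 in size. The sign of Psmc4 under Ad.DKK-1 turned after centring. On its second, lower probe set Psmc4 differed by 0.17 under Ad.DKK-1, −0.33 with ICG-001 and −0.095 with FJ9. Over the regulatory particle 3 of 17 subunits, Psmd7 included, were above control in all 3 pairs, beside 23.6% of all genes. Below it in all 3 pairs were 2 of 17, beside 23.4%. All 6 ATPases were higher on the vehicle array of FJ9 than on that of ICG-001, by 0.11 to 0.27, and all 6 lay below that vehicle with ICG-001.

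Psmd1 and Psmd2 are the large scaffold subunits of the base. Psmd1 read 10.76 on Ad.DKK-1 against 10.47 on Ad.GFP, 10.34 on ICG-001 against 10.59, and 10.16 on FJ9 against 10.66, highest on Ad.DKK-1 and lowest on FJ9. Psmd2 differed by 0.08, −0.33 and −0.17. Psmd4, a ubiquitin receptor, read 8.20 on Ad.DKK-1 against 8.26 on Ad.GFP, 7.98 on ICG-001 against 7.85, and 8.75 on FJ9 against 8.63. Its differences of −0.06, 0.13 and 0.12 were all smaller than the 0.78 between the vehicle arrays, the largest vehicle difference among the probe sets that stand for members. The sign of Psmd4 under Ad.DKK-1 turned after centring. Adrm1, the other ubiquitin receptor of the base under a name outside the family, read 11.06 on Ad.DKK-1 against 10.67 on Ad.GFP, 10.75 on ICG-001 against 10.40, and 10.51 on FJ9 against 10.32 and was above control each time, by 0.38, 0.35 and 0.19.

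The lid holds Psmd14, the metalloprotease that removes ubiquitin chains from the substrate. It read 10.54 on Ad.DKK-1 against 10.39 on Ad.GFP, 10.57 on ICG-001 against 10.37, and 10.02 on FJ9 against 10.29, and its differences were 0.15, 0.20 and −0.27. Under Ad.DKK-1 all 8 lid subunits with a family symbol lay above the median of all genes, up to 0.38 for Psmd8 and 0.37 for Psmd7, and none reached 1.5-fold. Psmd8 read 9.81 on Ad.DKK-1 against 9.43 on Ad.GFP, 9.32 on ICG-001 against 9.33, and 9.003 on FJ9 against 9.53, the highest lid difference under Ad.DKK-1 and, at −0.53, the lowest with FJ9. Its lower probe set gave 0.48 and −0.16 for the same comparisons.

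Psmd6 was the highest lid subunit with ICG-001 (0.40) and Psmd12 the lowest (−0.24). The other lid subunits were Psmd3 (−0.0018, 0.27 and −0.01), Psmd11 (0.08, −0.19 and 0.07) and Psmd13 (0.04, −0.22 and −0.27). Psmd7 was above control in all 3 pairs, with 0.03 for ICG-001, a sign that turned with loess correction. Sem1, a small lid subunit under a name outside the family, read 9.18 on Ad.DKK-1 against 9.80 on Ad.GFP, 9.54 on ICG-001 against 9.64, and 9.10 on FJ9 against 9.56. It was 1.53-fold lower under Ad.DKK-1 (−0.61) and below control with both compounds (−0.09 and −0.46), and is named here after its values were seen. After centring it was −0.52 under Ad.DKK-1, inside 1.5-fold, and its sign with ICG-001 turned (0.08). Its limma mean was −0.39 (SE 0.20, adjusted p = 0.253).

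The alternative caps bind the barrel in place of the regulatory particle and work without ubiquitin or ATP. Psme3, which forms the nuclear cap, read 11.13 on Ad.DKK-1 against 10.58 on Ad.GFP, 11.16 on ICG-001 against 10.59, and 10.66 on FJ9 against 10.61. The Ad.DKK-1 and ICG-001 arrays were the only ones above 11, at 0.55 and 0.57 from their controls, both just under 1.5-fold. The second probe set of Psme3 gave 0.50 and 0.52. After centring on array medians both differences were past 1.5-fold (0.64 and 0.74), beside medians of 0.03 and 0.18 over all genes. After repeated quantile normalization they were 0.61 and 0.53, so only that of Ad.DKK-1 was past it. With FJ9 the difference was 0.05, and −0.20 on the second probe set. The limma mean was 0.39 (SE 0.19, adjusted p = 0.221), with an interval of −0.02 to 0.80. Psme4, a large single-chain cap, read 10.41 on Ad.DKK-1 against 10.13 on Ad.GFP, 10.19 on ICG-001 against 10.49, and 10.05 on FJ9 against 10.47, above control under Ad.DKK-1 and below it with both compounds. Psme3ip1, which binds Psme3, read 9.93 on Ad.DKK-1 against 9.43 on Ad.GFP, 9.62 on ICG-001 against 9.20, and 9.81 on FJ9 against 9.32. Its differences of 0.50, 0.42 and 0.50 were close to each other, and its limma mean was 0.47 (SE 0.19, adjusted p = 0.148).

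The assembly chaperones, which are not part of the finished proteasome, lay mostly above control. Their median was 0.31 under Ad.DKK-1, 0.52 with ICG-001 and 0.30 with FJ9, and 0.17 between the vehicles. With ICG-001, 3 of 6 were at least 1.5-fold higher, beside 12.6% of all genes. All 6 lay above 0, beside 5084 of 10025 genes. Against the other vehicle the ICG-001 median was 0.32. There 2 of 6 were at least 1.5-fold higher, beside 12.5% of all genes. Above 0 were 4, beside 5219 of 10025 genes, and Psmd5 (−0.14) and Psmd10 (−0.18) lay below it. Psmg2, which pairs with Psmg1 to build the alpha ring, read 8.36 on Ad.DKK-1 against 8.40 on Ad.GFP, 9.22 on ICG-001 against 8.17, and 8.85 on FJ9 against 8.30. The ICG-001 array stood above all others, 2.07-fold over its vehicle, and the difference was 0.92 against the other vehicle. Its partner Psmg1 read 9.97 on Ad.DKK-1 against 9.73 on Ad.GFP, 10.26 on ICG-001 against 9.65, and 10.04 on FJ9 against 9.81. The ICG-001 value was again highest, at 0.61 from its vehicle and 0.46 from the other vehicle, where it was no longer past 1.5-fold.

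Psmg4, which pairs with Psmg3, read 7.09 on Ad.DKK-1 against 6.52 on Ad.GFP, 6.74 on ICG-001 against 6.37, and 7.21 on FJ9 against 6.56. It was above control each time, past 1.5-fold with FJ9 (0.64, and 0.83 against the other vehicle), and its mean level of 6.75 lay close to the level limit of 6.39. The limma means were 0.36 (SE 0.19, adjusted p = 0.265) for Psmg1, 0.52 (SE 0.25, adjusted p = 0.205) for Psmg2 and 0.53 (SE 0.27, adjusted p = 0.241) for Psmg4, with intervals of −0.05 to 0.78, −0.01 to 1.05 and −0.05 to 1.11. None passed the test.

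Psmd5, Psmd9 and Psmd10 escort the ATPases into the base. Psmd9 read 9.18 on Ad.DKK-1 against 9.08 on Ad.GFP, 9.32 on ICG-001 against 8.73, and 9.03 on FJ9 against 8.67, with 0.59 for ICG-001 and 0.65 against the other vehicle. After repeated quantile normalization, and after loess correction, it was 0.53, under 1.5-fold. In these 2 settings Psmg1 with ICG-001 was also under 1.5-fold (0.56 and 0.55). Psmd10 (0.64 and 0.61) and Psmg4 (0.64 and 0.63) were past it, so the named set changed. Psmd5 read 9.71 on Ad.DKK-1 against 9.34 on Ad.GFP, 9.08 on ICG-001 against 9.001, and 9.39 on FJ9 against 9.21, furthest above control under Ad.DKK-1. Psmd10, also known as the oncoprotein gankyrin, read 7.78 on Ad.DKK-1 against 7.31 on Ad.GFP, 7.61 on ICG-001 against 7.16, and 7.62 on FJ9 against 7.79. Its differences of 0.47 and 0.45 were below the 0.63 between the vehicle arrays. Pomp, the chaperone of the beta ring, did not follow the others: it read 8.31 on Ad.DKK-1 against 8.64 on Ad.GFP, 8.30 on ICG-001 against 8.44, and 8.49 on FJ9 against 9.05 and lay below control each time, with differences of −0.34, −0.14 and −0.55, while its vehicle difference was 0.60. The sign of Pomp with ICG-001 turned after centring.

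Psmc3ip, a partner of recombinases in meiosis rather than a proteasome part, read 7.16 on Ad.DKK-1 against 7.20 on Ad.GFP, 6.14 on ICG-001 against 7.16, and 6.92 on FJ9 against 7.12. The ICG-001 array was the only one below 6.9, and its value lay below the level limit of 6.39. The difference of −1.02 was the lowest of all members by letters. It was −0.98 against the other vehicle, −0.85 after centring, −0.84 after repeated quantile normalization and −0.77 after loess correction.

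**Figure D3:**
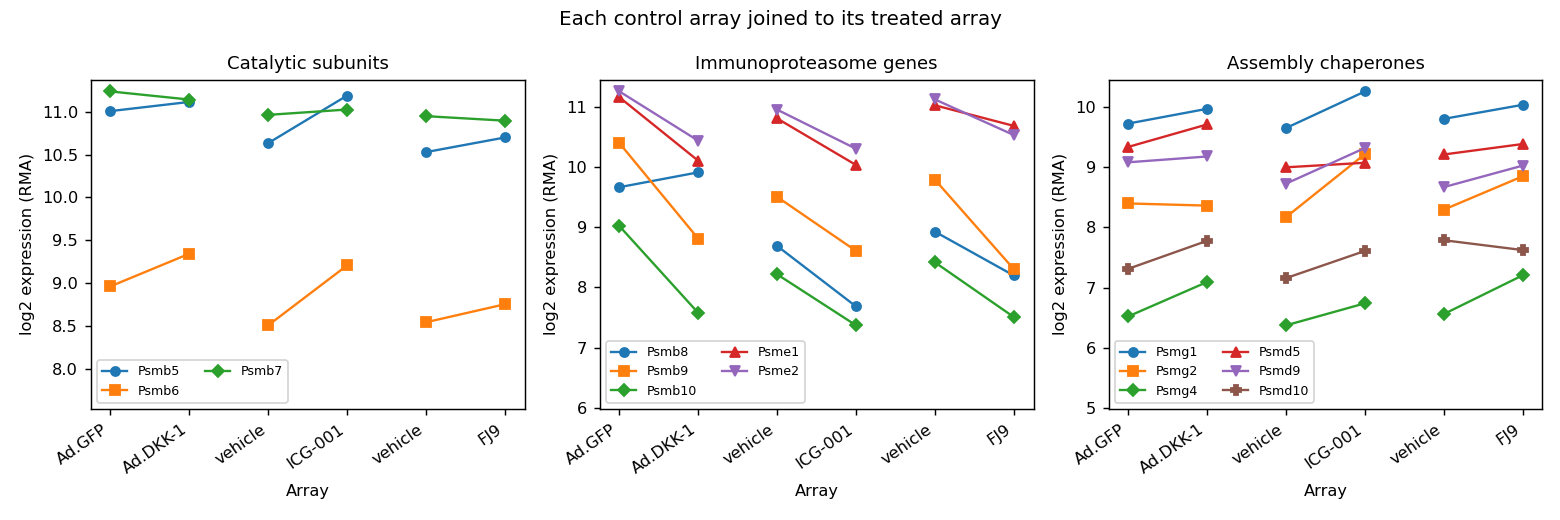
Log2 expression values of the catalytic subunits, the left-out immunoproteasome genes and the assembly chaperones, with each control array joined by a line to its treated array. Lines of Psmb5 and Psmb6 go up in all 3 pairs, lines of Psmb9, Psmb10, Psme1 and Psme2 go down in all 3, and Psmg2 is steepest with ICG-001.

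Among the immunoproteasome genes, which the rule leaves out, 4 of 5 were below control in all 3 pairs, beside 23.4% of all genes. All 5 were higher on the vehicle array of FJ9 than on that of ICG-001, by 0.17 to 0.29. With FJ9, 4 were at least 1.5-fold lower than its own vehicle, beside 14.8% of all genes. Against the other vehicle 2 were, beside 17.2%. With ICG-001 all 5 were past 1.5-fold against either vehicle, beside 13.1% and 12.2%. Psmb9, the counterpart of Psmb6, read 8.81 on Ad.DKK-1 against 10.40 on Ad.GFP, 8.61 on ICG-001 against 9.51, and 8.31 on FJ9 against 9.79, and its limma mean was −1.33 (SE 0.22, adjusted p = 0.00187). Psmb10, the counterpart of Psmb7, read 7.58 on Ad.DKK-1 against 9.02 on Ad.GFP, 7.37 on ICG-001 against 8.22, and 7.51 on FJ9 against 8.42, at −1.07 (SE 0.24, adjusted p = 0.0148), and Psmb8, the counterpart of Psmb5, read 9.92 on Ad.DKK-1 against 9.67 on Ad.GFP, 7.68 on ICG-001 against 8.69, and 8.20 on FJ9 against 8.93, at −0.50 (SE 0.25, adjusted p = 0.238). The cap genes Psme1 (−1.06, −0.77 and −0.34) and Psme2 (−0.82, −0.65 and −0.59) were called too, with limma means of −0.72 (SE 0.20, adjusted p = 0.0345) and −0.69 (SE 0.18, adjusted p = 0.0305). Thus 4 of these 5 genes fell over the treatments, beside 0 of 41 members and 503 of all 10025 genes. Whether the difference between both sets exceeds error was not tested. Macrophages also express these genes, and the summed level of 6 macrophage markers was 8.63 to 9.10 (log2) on treated and 9.43 to 9.65 on control arrays. Of these markers 5, 6 and 4 were below control under Ad.DKK-1, ICG-001 and FJ9, beside 5397, 4941 and 4936 of all 10025 genes. Only 2 of the 6 lay above the level filter, none lay at the floor of 4, and their part in the result was not tested. The summed level of the 11 measured stellate markers was also lower on treated arrays, at 15.10, 15.24 and 15.11 against 15.59, 15.51 and 15.45. Of the 11 stellate markers 9, 9 and 10 were below control, beside the same counts over all genes. In bulk RNA, fewer cells of a type and less RNA per cell cannot be told apart.

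Genes that build, bind or induce the proteasome were measured for 17 of 22 on the list. Their median was 0.36 under Ad.DKK-1, 0.26 with ICG-001 and 0.15 with FJ9, and 0.12 between the vehicles. At least 1.5-fold higher were 5, 2 and 5 of 17, beside 14.5%, 12.6% and 11.6% of all genes. Lower were 1 (Sem1), 0 and 0, beside 20.8%, 13.1% and 14.8%. The largest were the shuttle factor Ubqln2 (0.99) and the stress-induced zinc finger gene Zfand2a (0.82) under Ad.DKK-1, Ubqln4 (0.85) and Ubqln1 (0.66) with ICG-001, and Zfand2a (1.12) and Ubqln4 (0.95) with FJ9. Nfe2l1, the activator of subunit genes, read 11.04 on Ad.DKK-1 against 10.86 on Ad.GFP, 11.08 on ICG-001 against 10.87, and 11.34 on FJ9 against 11.20. Its differences of 0.18, 0.21 and 0.13 were smaller than its vehicle difference of 0.33. Of these 17 genes limma called 1, beside 8.58% of all genes. It was Akirin2, which carries the proteasome into the nucleus, at 0.69 (SE 0.19, adjusted p = 0.0368), named here after its value was seen.

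The list of ubiquitin supply and the segregase Vcp, with 16 of 22 measured, had medians of 0.26, 0.01 and 0.14, and 0.08 between the vehicles. Its largest differences were Faf1 (0.99) and Vcp itself (0.53) under Ad.DKK-1, Ube2d1 (0.51) and Uba6 (0.35) with ICG-001, and Faf1 (0.91) and Ufd1 (0.49) with FJ9. None was called by limma, and 1 of 16 had an unadjusted p under 0.05, a smaller share than over all genes.

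Other large cytosolic complexes were measured for comparison. The CCT chaperonin and prefoldin, which fold actin and tubulin, had medians of 0.25, 0.29 and 0.36 over 12 genes, and 0.08 between the vehicles. Pfdn6 (1.05) and Cct6a (0.76) led with ICG-001, Tcp1 (0.67) and Cct7 (0.59) under Ad.DKK-1, and Cct4 (0.80) and Cct5 (0.64) with FJ9. The COP9 signalosome and the initiation factor eIF3, built on the same folds as the lid, had medians of 0.11, 0.29 and 0.25 over 18 genes. Between the vehicles their median was 0.11. Their largest members were Eif3d (0.81) and Eif3b (0.78), Cops5 (0.56) and Cops7b (0.49), and Eif3h (0.51) and Eif3j (0.42), in the same order of treatments. No gene of either list was called by limma, and 5 of 12 (41.7%) and 3 of 18 (16.7%) had an unadjusted p under 0.05, beside 2502 of all 10025 genes. These medians and those of the lid (0.14, 0.01 and −0.05) are set side by side without a test.

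Cytosolic heat shock chaperones, which refold or hand over damaged proteins, had medians of 0.20, 0.17 and 0.36 over 22 genes, and 0.11 between the vehicles. Hspa4l was their largest difference each time (1.69, 1.06 and 1.52) and the only 1 of 22 called by limma, beside 8.58% of all genes. Its 3 control arrays (4.98, 6.30 and 6.21) all lay below the level limit of 6.39 and its 3 treated arrays (6.67, 7.36 and 7.73) above it. The gene passed the filter through its treated arrays, so neither the call nor the size of its differences is used as support. It was followed by Hspb8 (1.16), Fkbp4 (0.95) and Hsf2 (0.76). Autophagy, the other main route of protein breakdown, had medians of −0.28, 0.12 and 0.14 over 25 genes, and 0.0046 between the vehicles. Ulk1 (−1.33) and Atg13 (1.298) led under Ad.DKK-1, Atg16l1 (0.65) and Gabarapl1 (−0.65) with ICG-001, and Sqstm1 (1.14) and Atg14 (0.80) with FJ9. Of the 25 autophagy genes limma called 1, beside 8.58% of all genes. It was Sqstm1, the receptor that delivers ubiquitinated cargo, at 0.73 (SE 0.19, adjusted p = 0.0307).

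**Figure D4:**
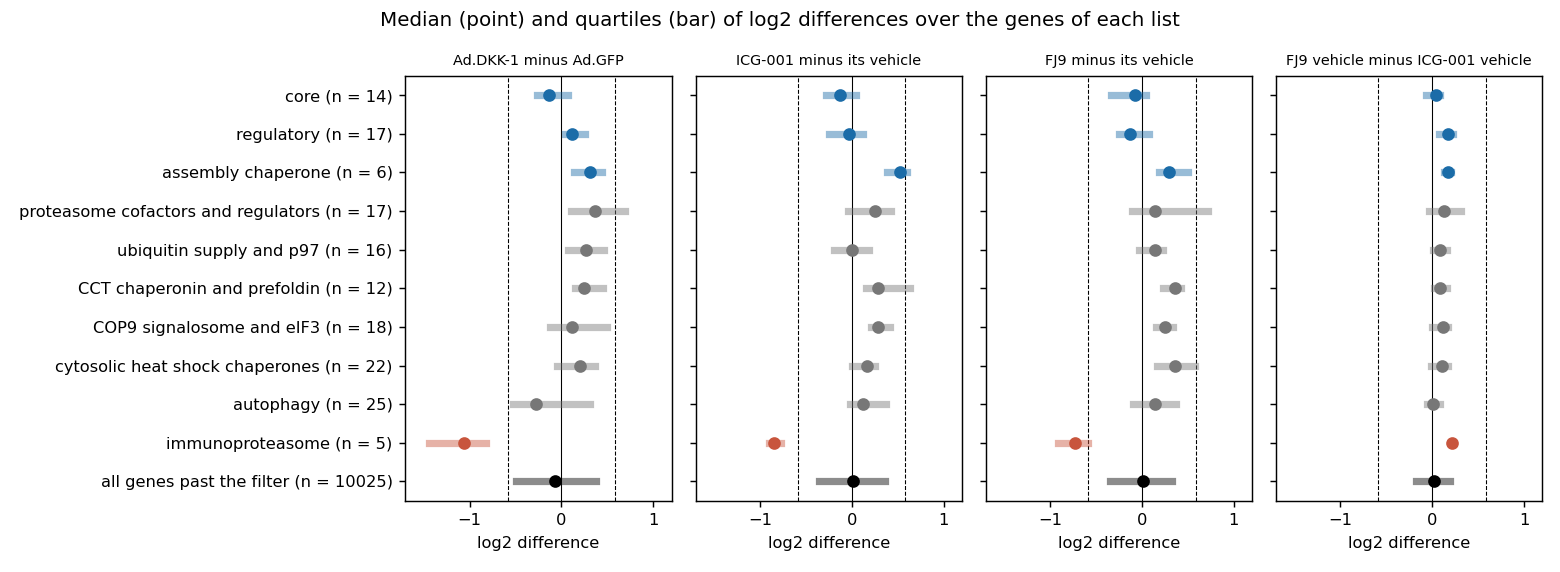
Points are medians and bars the quartiles of the log2 differences over the genes of each list, in 1 panel per comparison, with 1.5-fold as dashed lines. The core and regulatory particles stay near the median of all genes, the assembly chaperones and the folding complexes lie to the right of it, and the immunoproteasome genes lie far to the left in the 3 treatment panels.

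The genes outside the family whose 3 differences lay nearest to the median profile of the 31 subunits (0.08, −0.04 and −0.10) were Sqor, Usp9x, Snf8, Gpr183 and Otub1, at Euclidean distances of 0.04 to 0.08 over the 3 treatments. That profile lies close to 0, and many genes that differed little would be near it.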

How the data were processed

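RNA was measured on 6 Affymetrix arrays, 1 per group. The submitters' processing notes name RMA and Affymetrix Expression Console for the deposited log2 expression values, which were used unchanged. Versions, genome build and vehicle were not given in the sources used here. Values ran from 4.00 to between 13.5 and 13.8, and the number of arrays limits the precision.

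Of 26988 probe sets, 15092 had 1 symbol in the platform annotation. Of the 42 members, 41 matched RefSeq (assembly GRCr8, names only) by Entrez identifier, all but Psma3l. For 16 RefSeq names pseudogenes or near copies, and 5 had several probe sets. A level filter at a mean of 6.39 dropped the lowest 30% of genes.

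limma 3.58.1 in R 4.3.3 (lmFit, eBayes using a mean-variance trend) gave two-sided tests of treated against control, blocked by the pairs of the design, with Benjamini-Hochberg adjustment over 10025 genes. Each gene has 2 residual degrees of freedom, so standard errors borrow heavily from other genes. The fit was tested on simulated data. Members and lists were chosen with earlier results of these data known. Named genes are the 3 highest and 3 lowest members of each treatment, a fixed set of catalytic, receptor, cap and chaperone genes, and the 2 largest differences of each other list. Alternatives were median centring, repeated quantile normalization, loess (span 0.3), no level filter, other probe set rules, the other vehicle, and a higher (2-fold) or lower fold limit. Promoter motifs were not analysed here.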

Additional observations from a re-analysis of the deposited data

How the results depend on the processing

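With no replicates, a median counted as moved when it shifted by more than the standard deviation of the vehicle difference over its genes divided by the square root of 2 (0.10 for the core, 0.14 for the regulatory particle). By this rule, or within 1.5 times for counts, 88 alternative values stayed close and 27 moved. The ICG-001 medians moved with array centring to 0.041 (core) and 0.14 (regulatory), beside 0.18 for all genes, and with the other vehicle to −0.31 and −0.21, beside 0.02. Both Ad.DKK-1 and both FJ9 medians stayed close. Members at least 1.5-fold higher under Ad.DKK-1 went from 0 to 3 with centring, 2 with quantile normalization, 1 with loess and 8 at the lower fold limit. Lower ones went from 1 to 0 with centring and at 2-fold, 2 without the level filter and 3 at the lower fold limit. With ICG-001 higher members went from 5 to 9 with centring, 1 at 2-fold and 11 at the lower fold limit, and lower ones from 1 to 2 with quantile normalization and with loess, 4 with the other vehicle and 8 at the lower fold limit. With FJ9 higher members went from 1 to 4 with the other vehicle and at the lower fold limit and to 0 at 2-fold. Of all genes 1588 were higher against that vehicle and 245 at 2-fold. Lower members with FJ9 went from 1 to 2 with loess and with the lowest-mean probe set. They went to 0 with the other vehicle and at 2-fold, and to 8 at the lower fold limit. Of all genes 1665 were lower with loess, 1487 with the lowest-mean probe set, 1723 with the other vehicle and 601 at 2-fold. The lowest-mean probe set, the added probe set of Psma3l and Psma3, and Psmd5, Psmd9 and Psmd10 counted in the regulatory particle were chosen after the data were seen. limma called 0 members in each alternative run, which were the other normalizations, no level filter, no trend, no replicate block and leaving out each pair in turn (0 to 0), while its calls over all genes ranged from 422 to 922. For the values that moved with a normalization, a vehicle or a probe set, the cause was not tested. Signs of small differences turned under a scaling for Pomp, Psma4, Psma7, Psmb4, Psmc1, Psmd7, Psmd8 and Sem1 with ICG-001, Psma1 and Psmd12 with FJ9, Psma6, Psmc3ip, Psmc4, Psmd3, Psmd4 and Psmg2 with Ad.DKK-1. Array centring turned the split over all genes from 1449 higher and 2082 lower to 1874 and 1681 under Ad.DKK-1, and from 1267 and 1314 to 2218 and 754 with ICG-001. At the lower fold limit the split over all genes was 2791 higher and 3457 lower under Ad.DKK-1. It was 2765 and 2677 with ICG-001, and 2570 and 2658 with FJ9. Under Ad.DKK-1, 1522 of all genes were higher with quantile normalization and 1552 with loess. Lower under Ad.DKK-1 were 793 at 2-fold and 3236 of 14322 without the level filter. With ICG-001, 290 of all genes were higher at 2-fold. Lower with ICG-001 were 1093 with quantile normalization, 1013 with loess and 1221 with the other vehicle.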
